A study of Mus musculus with 8 samples.

Results

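The comparison described here sets 1 array against 1 array: cerebellar cells of wild-type mice cultured with the thyroid hormone T3 for 24 h, and the matched culture left without T3 for the same time. A probe-set entered when its signal reached 50 on at least one of these arrays, which 16631 of 45037 non-control probe-sets did, and they covered 9631 of the 18193 genes with a probe-set of their own. Each gene was read by its brightest probe-set. Cerebella were pooled, and the sample labels give pups of P4 to P7 while the methods give newborns of P1 to P4. The dissociated cells spent 48 h in serum-free Neurobasal medium with B27 supplement before T3 was added at 0.1 µM, and the untreated culture went through the same changes of medium. Both cultures of a time point came from the same batch of cells, and the series holds such a pair at 6, 16, 24 and 48 h, 8 arrays in all. No culture had a replicate. A fold change between the 24 h arrays therefore has no error and no test, and it describes these 2 cultures rather than the hormone in general. The arrays read RNA of the whole culture, so fewer cells of a type and less RNA per cell cannot be told apart.

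T3 acts through nuclear receptors that sit on DNA and switch from repression to activation of their target genes when the hormone binds. In the developing cerebellum, thyroid hormone is needed for granule cell precursors to stop dividing and migrate, for Purkinje cells to build their dendrites and for oligodendrocytes to make myelin. Klf9, a zinc finger transcription factor, and Dbp, a PAR bZIP transcription factor of the circadian output, are well known to respond to T3.

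At 24 h, 641 probe-sets were over 2-fold higher with T3 (3.85% of those that passed) and 1207 were over 2-fold lower (7.26%). By gene these were 285 higher (2.96%) and 721 lower (7.49%). Of all 9631 genes, 4935 had a difference above 0. The corresponding shares beyond 2-fold in either direction were 0.606% at 6 h, 0.815% at 16 h and 0.826% at 48 h, each with the same rule applied to its own pair of arrays. The SD of the log2 difference was 0.689 at 24 h and lay between 0.269 and 0.294 in the other pairs. The median log2 difference at 24 h was 0.03 on arrays that had been scaled to the same trimmed mean. With 32 added to every signal, which shrinks differences between dim spots, 249 probe-sets were higher and 676 lower. Probe-sets at the edges of the rule had signals of 50 inside and 49.9 outside, and log2 differences of 1.00016 inside and 1.00 outside.

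**Figure D1:**
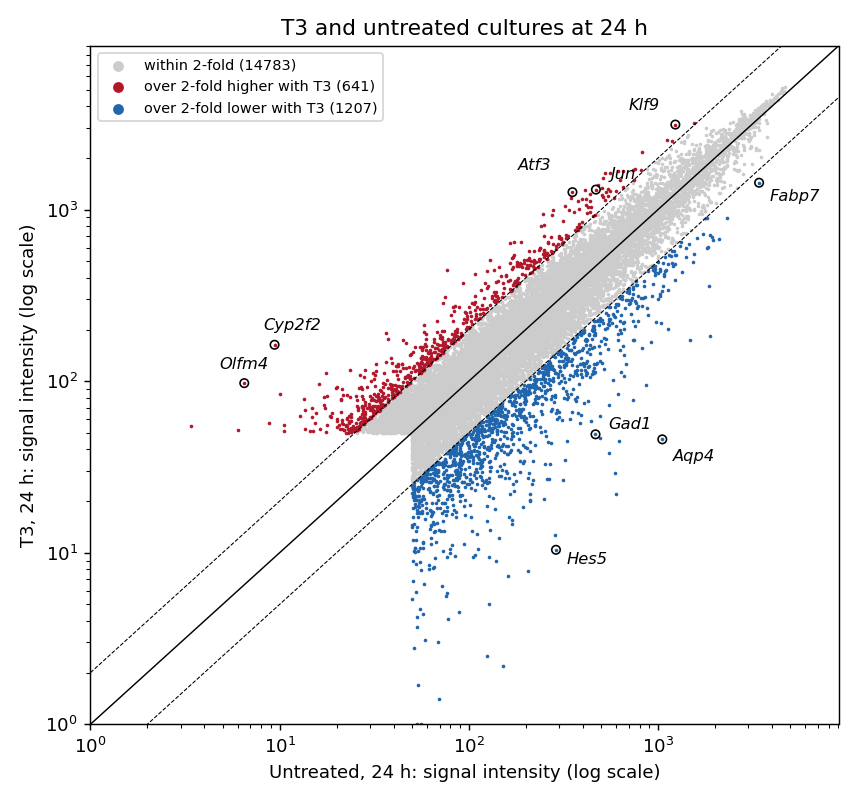
Signal intensity of the 16631 probe-sets on the untreated (x axis) and the T3-treated (y axis) 24 h array, both on log scales, 1 point per probe-set; the solid line marks equal signals and the dashed lines 2-fold. The cloud below the diagonal, with 1207 points past the dashed line, reaches farther from it than the 641 points above, and 9 genes named in the text are circled.

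The arrays of the other time points give a scale for the levels on each 24 h array. Among the 1207 lower probe-sets, the untreated 24 h array lay above all 6 arrays of 6, 16 and 48 h in 1043 (86.4%), while the T3 array lay within their range in 884 (73.2%). Among all probe-sets that passed, the untreated array lay above the 6 in 24.5% and the T3 array within them in 73.3%. The lower probe-sets had a median log2 level on the untreated array 1.65 above the mean of the 6 other arrays, and on the T3 array 0.06 above it. When the mean of the untreated arrays of 6, 16 and 48 h took the place of the untreated 24 h array, 78 of these 1207 (6.46%) were still over 2-fold lower with T3. The untreated 24 h array took part in choosing the 1207, so its high place and the loss on replacing it are partly fixed by that choice. The 641 higher probe-sets showed a different split. The T3 array lay above the 6 others in 286 (44.6%) and the untreated array below them in 320 (49.9%), against 15.1% and 19.2% of all that passed. Of the 641, 179 (27.9%) were still over 2-fold higher against the mean of the 3 other untreated arrays. Both 24 h arrays took part in choosing the 641 as well. These 6 arrays differ from the 24 h pair in hours of culture and perhaps in cell batch, and the parts of the hours, the batch and the single culture were not tested. The ratio of 3′ to 5′ signal for actin, a sign of RNA integrity, was 2.13 on the T3 array and 1.69 on the untreated array, and 1.85 to 2.55 on the others. For Gapdh it was 2.39 and 2.46 against 1.61 to 2.95.

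Markers of inhibitory neurons were lower with T3. Of 15 genes in the list of GABAergic interneurons and their precursors, 8 passed and 7 of these were over 2-fold lower, with a median log2 difference of -2.32 against 0.01 over all 9631 genes. The signal of Gad1, the enzyme that makes GABA, was 168.2 against 246.7 after 6 h (T3 against untreated), 68.8 against 47.8 after 16 h, 49.0 against 467.4 after 24 h, and 26.4 against 22.4 after 48 h. Tfap2b, a transcription factor of inhibitory precursors, had 26.5 with T3 and 316.3 without after 24 h, and 13.5 to 27.0 on the other 6 arrays. In both genes the untreated 24 h culture was the highest of the 8, and the T3 culture lay within the range of the other 6. Gad1 was also higher in both 6 h cultures than at 16 and 48 h, whereas Tfap2b was low on all 6 arrays of those times. Tfap2a, its close relative (log2 difference -2.44), the GABA transporter of synaptic vesicles Slc32a1 (-2.23), the calcium buffer Pvalb (-2.17) and the lineage factor Ptf1a (-2.41) also lay above the 6 others without T3 and within them with T3. Their T3 signals were dim (10.2 to 34.3), and with 32 added the differences of Tfap2a, Slc32a1, Pvalb and Ptf1a were -1.72, -1.29, -1.23 and -1.03. The summed signal of the 12 genes of this list with a probe-set was 366.4 with T3 and 1659 without, and 287.6 to 985.5 on the other arrays. Only 2 of the 8 genes reached 50 on both 24 h arrays, so most passed through the untreated array alone and had to be lower with T3. With 32 added to every signal the median of the list was -1.26, against -1.92 for oligodendrocyte precursors, which had -2.11 without it.

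Purkinje cells are the output neurons of the cerebellar cortex, and 4 of the 6 genes of their list that passed were over 2-fold lower. Car8, an inhibitor of inositol trisphosphate receptor signalling, had 84.2 with T3 and 612.7 without after 24 h, 388.8 against 538.6 after 6 h, 179.0 against 161.2 after 16 h, and 59.9 against 55.5 after 48 h. Pcp2, a G protein modulator known to respond to T3 in the cerebellum (-1.85), the calcium buffer Calb1 (-1.32) and the calmodulin-binding peptide Pcp4 (-1.22) were lower too, whereas Foxp2 (-0.36) and Rora (0.37) stayed within 2-fold. Without T3, Car8, Calb1 and Pcp4 exceeded all 6 other arrays, and with T3 none of the 6 genes left their range. Eomes, which marks unipolar brush cells, was the one gene of 4 in its list that was over 2-fold lower, and Calb2, a calcium buffer of the same cells, was higher (1.21).

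Genes of the oligodendrocyte lineage followed the same order. Olig1, a transcription factor that specifies the lineage, gave 125.8 with T3 and 681.5 without after 24 h and 82.1 to 109.1 elsewhere. Bcas1, a protein of newly forming oligodendrocytes, gave 173.1 against 744.8 after 24 h and 83.0 to 242.2 elsewhere. Cnp, an enzyme of myelin, gave 152.9 against 631.2 after 24 h, 211.2 against 190.0 after 6 h, 180.5 against 183.3 after 16 h, and 209.8 against 264.0 after 48 h. Across these 3 genes only the untreated 24 h culture left the common level by a wide margin. Gpr17, a receptor of late precursors, had 2.5 with T3 and 124.1 without, and under 10 on every other array. In contrast, Pdgfra, the receptor of early precursors, had 245.0 and 242.4 on the 24 h arrays both below the other 6 (326.9 to 632.9), and the proteoglycan Cspg4 of the same cells had 67.1 and 55.7. Of the precursor list 3 of 5 genes that passed were over 2-fold lower, and of the myelin list 3 of 4 (Ugt8a, Cnp and Mbp). Gpr17 and Ugt8a (14.4 with T3) entered through the untreated array alone and had to be lower. Among genes with a signal of 50 on both arrays, 2 of 4 precursor genes and 2 of 3 myelin genes were over 2-fold lower. The 7 probe-sets of Mbp that passed did not all point one way, with 5 lower and 2 higher.

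Of 30 astrocyte and Bergmann glia genes 25 passed, and 12 were over 2-fold lower with T3, 1 was higher, and the median was -0.78. Of the 12, 5 reached a signal of 50 on both arrays, and the others entered through the untreated array alone. Fabp7, the brain fatty acid binding protein of radial and Bergmann glia, was the brightest of the 12, with 1435 with T3 and 3423 without after 24 h and 1120 to 1285 on the other arrays. Aldh1l1, a folate enzyme of astrocytes, had 73.0 against 551.7 after 24 h and 72.0 to 108.8 elsewhere. Slc1a3, the glutamate transporter GLAST, had 112.5 and 639.0 against 76.6 to 166.5. The second glutamate transporter, Slc1a2 (-1.79), the membrane protein Mlc1 (-4.46, and -2.30 with 32 added to its dim T3 signal of 7.30), the lipase Pla2g7 (-2.05), the proteoglycan Cspg5 (-2.18), the brain aldolase Aldoc (-1.86) and the protease inhibitor Timp4 (-1.62) were also lower. Other genes of the list were near level. The gap junction protein Gja1 (0.14), the apolipoproteins Clu (0.22) and Apoe (-0.39), glutamine synthetase Glul (-0.14) and the transcription factor Sox9 (0.03) were among them. A second, also dim probe-set of Sox9 had -0.87. Htra1, a secreted serine protease, was the gene that was higher, with 1125 against 378.1 after 24 h, and its T3 value was above the untreated one in the pairs of 6 h (142.6 and 77.1), 16 h (1347 and 999.4) and 48 h (1939 and 1371) as well.

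Notch signalling keeps neural progenitors undifferentiated, and 5 of 14 genes of the hedgehog and Notch list that passed were lower. Hes5, the transcriptional repressor that Notch induces in progenitors, had 288.9 on the untreated 24 h array and 10.4 on the T3 array, and 5.10 to 9.40 on the other 6. The ligands Dll1 (-1.57) and Dll3 (-1.99), the repressor Hey1 (-1.93) and the feedback inhibitor Nrarp (-1.16) were lower as well. Of these 5, 2 reached a signal of 50 on both arrays (Hey1 and Nrarp). Hes5, Dll1 and Dll3 entered through the untreated array alone and had to be lower. With 32 added, Dll3 had -1.11 and Dll1 and Nrarp came within 2-fold (-0.90 and -0.83). Hes1 (0.07), Jag1 (0.49), the hedgehog transducer Smo (-0.07) and its receptor Ptch1 (-0.50) were within 2-fold. In the stem cell list, which also holds Hes5, the proteoglycan Bcan (-2.21), the stem cell factor Sox2 (-1.68), the phosphatase Ptprz1 (-1.67) and the endothelin receptor Ednrb (-1.57) made up the 5 lower of 12. Nes (0.07, and 0.65 in a second probe-set) and Vim (-0.11), intermediate filaments of the same cells, were within 2-fold.

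Granule cells are the most numerous neurons of the cerebellum, and the labels describe the cultures as cerebellar neurons. Neurod1, a transcription factor of granule neurons, had 1899 with T3 and 2578 without after 24 h, 2566 against 2672 after 6 h, 975.3 against 901.5 after 16 h, and 422.7 against 266.3 after 48 h. The neuronal splicing factor Rbfox3 had 1164 against 1216 after 24 h. Both markers differed by less than 2-fold at 24 h. Of 9 granule neuron genes that passed 8 were below 0, with a median of -0.63 (-0.97 with the mean of the probe-sets of a gene), and 3 were over 2-fold lower, namely the synaptic organizer Cbln1 (-3.08), the GTPase regulator Chn2 (-2.58) and the transcription factor Neurod2 (-1.35). Of 12 precursor genes 3 were lower: Atoh1, the factor that founds the lineage (32.8 with T3 and 270.1 without), Barhl1 (-2.11) and Mycn (-1.36). Atoh1 at 24 h had its T3 value near those of 48 h (26.9 and 27.6) and its untreated value above those of 6 h (206.6 and 232.5).

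Of 15 genes of vesicle release at the synapse 14 were below 0, 6 were over 2-fold lower and none was over 2-fold higher, and 12 of the 15 exceeded the other 6 arrays in the untreated culture, as did 23.5% of all genes. Syt1, the calcium sensor of release, had 313.8 against 925.3 after 24 h, 452.4 against 570.5 after 6 h, 166.8 against 170.2 after 16 h, and 82.1 against 52.8 after 48 h. Complexin Cplx2 (-1.81), the scaffold Bsn (-1.65, and -0.99 with 32 added), Sv2b (-1.38), Rims1 (-1.25) and Sv2a (-1.13) completed the 6. Snap25 (0.24) and Rab3a (-0.01, and -0.73 in a second probe-set) were within 2-fold. The AMPA receptor subunits Gria1 (-1.89, from a T3 signal of 18.2, and -0.99 with 32 added) and Gria2 (-1.25) were lower among 5 glutamate receptor genes. In axon guidance 6 of 15 were lower, among them the semaphorin Sema6a (-1.99), the attractant Ntn1 (-1.45) and its receptors Dcc (-1.22) and Unc5c (-1.13), and the Slit receptor Robo1 (-1.33). The semaphorin receptor Nrp2 (0.43), the repellent Slit2 (0.12) and Sema3f (0.64) were not.

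**Figure D2:**
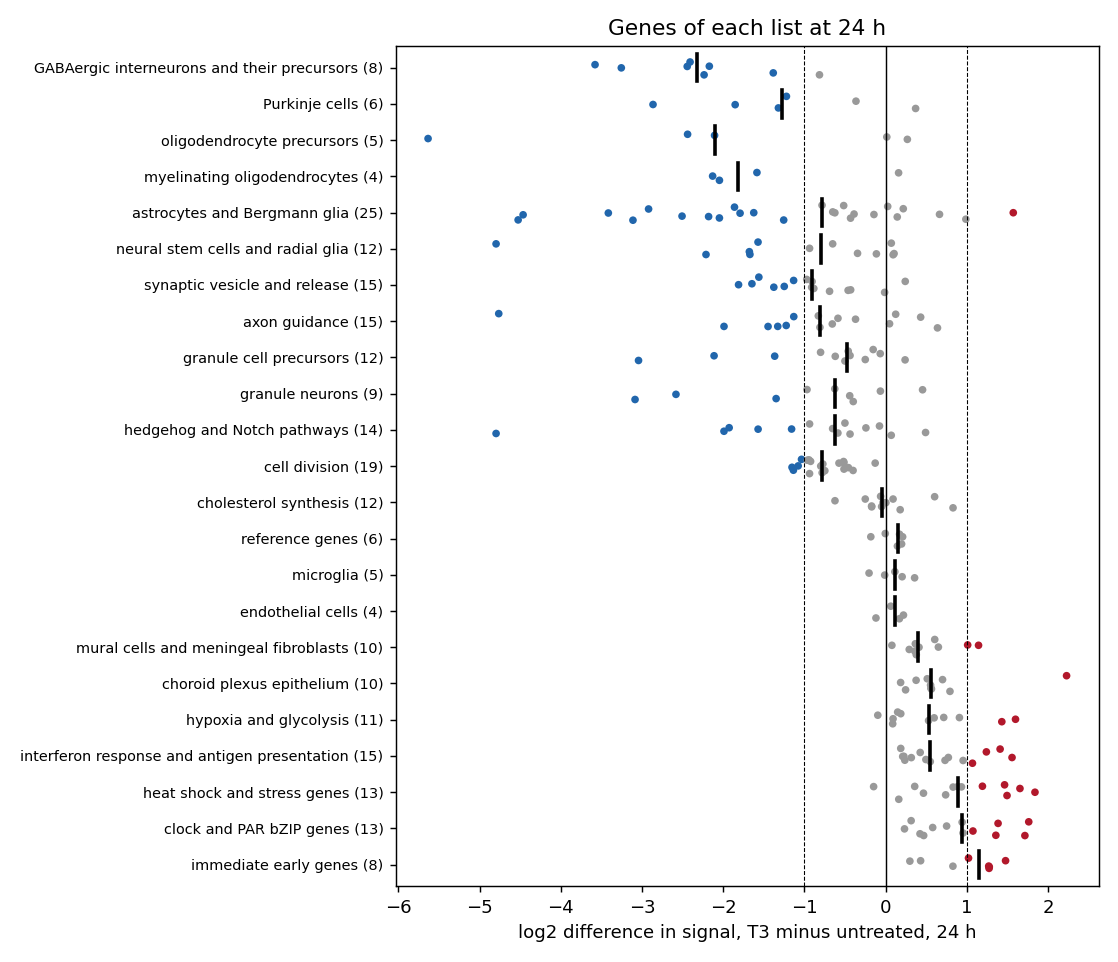
Difference in log2 signal between the T3 and the untreated 24 h array (x axis) for the genes of 23 lists (y axis, with the number of genes that passed), 1 point per gene; blue and red points are beyond 2-fold (dashed lines), black bars are medians. The neural and glial lists shown have medians below 0, down to -2.32, and immediate early, clock and stress genes have medians above 0, up to 1.15; the unipolar brush cell list (median 0.03) is not drawn.

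Over the 9 neural and glial lists together, 85 genes passed, 41 were over 2-fold lower and 2 higher. Among the 64 with a signal of 50 on both arrays 21 were over 2-fold lower, and the other 20 of the 41 entered through the untreated array alone and had to be lower. In 37 of the 41 (90.2%) the untreated 24 h array exceeded the 6 other arrays, close to the 86.4% of all lower probe-sets. That array took part in choosing both sets. Of the 41, 3 (7.32%) were lower with T3 in each of the pairs at 6, 16 and 48 h as well, against 14.0% of all lower probe-sets, and none by 1.5-fold in all of them. These differences at 24 h are themselves marker levels of several cell types, and no other measure of the makeup of the culture was compared. What part that makeup had in them was not tested.

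Among markers of non-neural cells, none of the 5 microglial and 4 endothelial genes that passed was beyond 2-fold, and both 24 h arrays lay below the 6 others in 4 of 5 and 3 of 4. Csf1r, the growth factor receptor of microglia, had 62.1 with T3 and 53.9 without against 125.6 to 446.1 elsewhere. The summed signal of the 17 microglial genes was 524.4 and 525.5, and 968.9 to 4341 on the other arrays. Both 24 h cultures were therefore alike in this respect and apart from the other time points. All 10 mural and meningeal genes that passed were above 0, with a median of 0.40 and the contractile actin Acta2 (1.15) and the receptor Pdgfrb (1.01) over 2-fold. All 10 choroid plexus genes were above 0 too, with a median of 0.56, and Kcnj13 alone was over 2-fold. Over all 9631 genes, 4935 were above 0. Kcnj13 (37.6 without T3) entered through the T3 array alone and had to be higher. Of the 8 choroid plexus genes with a signal of 50 on both arrays, 0 were over 2-fold higher. In these 4 lists 3 of 29 genes were thus over 2-fold higher, against 2.96% of all genes. No red blood cell gene reached a signal of 50. The list of X and Y chromosome genes, which follows the sexes in the pool, had no member beyond 2-fold at 24 h, and Xist, the RNA that silences one X chromosome in females, had 836.1 with T3 and 1037 without.

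The genes of cell division behaved in another way, since the T3 array was the one that stood apart. All 19 that passed of 21 were lower with T3, 4 of them over 2-fold, and the median was -0.78. The T3 array lay below all 6 others in 17 of the 19, and the untreated array lay within their range in 13. Over all genes these shares were 12.5% and 58.5%. Mki67, the proliferation marker, had 546.1 with T3 and 932.6 without after 24 h, 1837 against 2115 after 6 h, 1158 against 1254 after 16 h, and 667.4 against 581.1 after 48 h. The levels without T3 thus went down from 6 to 48 h, and the T3 value at 24 h was under those of 48 h. Mcm6, a subunit of the replicative helicase, had 225.6 against 475.6 after 24 h and 331.9 to 683.4 elsewhere. The mitotic kinase Aurkb (-1.15), the spindle protein Nusap1 (-1.13) and the helicase subunit Mcm5 (-1.03) were the others over 2-fold. In the pairs at 6, 16 and 48 h the median of the list was 0.01, 0.03 and 0.19.

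Immediate early genes, which are transcribed within minutes of many stimuli, were higher with T3. Of 11 genes 8 passed, all 8 were above 0, 5 were over 2-fold and the median was 1.15. Of all 9631 genes, 4935 were above 0 and 2.96% were over 2-fold higher. Jun, a subunit of AP-1, had 1308 with T3 and 469.7 without after 24 h, 426.7 against 420.1 after 6 h, 357.3 against 267.5 after 16 h, and 405.4 against 689.1 after 48 h. Fos, its partner, had 1275 against 528.6 after 24 h, 775.1 against 1140 after 6 h, 207.9 against 218.1 after 16 h, and 565.6 against 267.3 after 48 h. The T3 24 h culture had the highest level of both on any array, although Fos also varied widely among the other pairs. The orphan receptor Nr4a1 (1.27), Ier2 (1.28) and the zinc finger factor Egr2 (1.02) were the others over 2-fold, and the phosphatase Dusp1 (0.83) and Egr1 (0.30) were not. The T3 array exceeded the 6 other arrays for 6 of the 8, and for 13.4% of all genes. Of the 5 over 2-fold, 3 reached a signal of 50 on both arrays.

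The circadian clock is a loop in which CLOCK and ARNTL activate E-boxes of Per, Cry and Nr1d genes, whose products repress them in turn. All 13 genes of the clock list that passed, of 17, were above 0 at 24 h, against 4935 of all 9631 genes. Over 2-fold higher were 5, against 2.96% of all genes. The median was 0.94, or 0.61 with 32 added. Nfil3, a bZIP repressor that opposes Dbp, had 271.7 with T3 and 82.7 without after 24 h and 116.0 to 186.6 elsewhere. Ciart, a repressor of CLOCK and ARNTL, had 108.3 and 31.9 against 45.6 to 54.7. Ciart entered through the T3 array alone and had to be higher. Nr1d2, the nuclear receptor REV-ERB beta, had 1123 and 438.1 against 554.7 to 1064. In these 3 genes the T3 array lay above and the untreated array below all 6 others, and the same held for Clock itself (264.0 and 137.3 against 181.1 to 221.6). The repressor Cry1 (1.08) was over 2-fold higher with its untreated value below the 6 others. The differences of the 12 genes besides Dbp in the other pairs lay between -0.40 and 0.60, and the medians of the list there were 0.02, 0.11 and 0.00.

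The E-box CACGTG was looked for, on both strands, in the stretch from 250 bases before to 50 after each gene start in RefSeq (GRCm38.p6). It was found for 4 of the 11 clock genes with an entry (Ciart, Cry1, Per1 and Tef) and for 8.09% of all 27025 genes. Of these 4, Per1 (0.47) and Tef (0.23) were within 2-fold. The other clock genes over 2-fold higher, Nfil3, Nr1d2 and Dbp, were not among the 4. The stretches just before the starts of Ciart (chr3:95882229-95882348, minus strand) and Cry1 (chr10:85185055-85185174, minus strand) are printed 5′ to 3′ to show where the site, in capitals, lies.
Ciart: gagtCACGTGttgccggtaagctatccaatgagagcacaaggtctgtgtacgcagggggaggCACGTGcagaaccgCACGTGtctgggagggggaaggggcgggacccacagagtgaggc
Cry1: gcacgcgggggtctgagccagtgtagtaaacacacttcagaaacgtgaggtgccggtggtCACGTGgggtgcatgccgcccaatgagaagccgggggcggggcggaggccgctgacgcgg
The 3 sites of Ciart end 111, 53 and 39 bases before its start, and the site of Cry1 ends 55 bases before its own. A match describes the letters only, binding was not measured, and a link between the site and the signals was not tested.

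Of 13 heat shock and stress genes 12 were above 0, against 4935 of all 9631 genes. Over 2-fold higher were 5, against 2.96% of all genes, and the median was 0.89. All 5 are known for their part in the response to amino acid shortage, endoplasmic reticulum stress or energy stress, much of which the factor ATF4 drives. Chac1, which degrades glutathione, had 1301 with T3 and 413.2 without after 24 h, 946.4 against 1002 after 6 h, 781.5 against 675.4 after 16 h, and 401.6 against 539.3 after 48 h. Trib3, a pseudokinase that restrains ATF4, had 705.1 against 250 after 24 h and 401.6 to 769.3 elsewhere. Asns, asparagine synthetase, had 2561 against 1120 after 24 h and 1449 to 2528 elsewhere. For Trib3 and Asns the untreated 24 h array was the lowest of all 8, and the T3 array lay within or just above the others. The stress factor Atf3 (1.84) and the mTOR inhibitor Ddit4 (1.47) were the other 2. The chaperones Hspa1a (0.83) and Hspa1b (0.74) were within 2-fold, and their signals were highest in the untreated 48 h culture. In the pairs at 6, 16 and 48 h the median of the list was -0.06, -0.04 and -0.53. Shmt2, the mitochondrial serine enzyme (1.76), and Slc7a3, a transporter of cationic amino acids (1.83), which stood among the 12 largest differences upwards with 32 added, had their lowest untreated values at 24 h as well.

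The C/EBP-ATF response element, searched as TGATGNAA on both strands in the same windows, was found for 4 of the 12 stress genes with an entry (Asns, Atf3, Chac1 and Trib3) and for 4.51% of all genes. The 4 are all among the 5 over 2-fold higher, but the motif was chosen after these values had been seen. The stretches before the starts of Chac1 (chr2:119350992-119351241, plus strand), Atf3 (chr1:191183334-191183453, minus strand) and Asns (chr6:7693210-7693329, minus strand) are shown with the match in capitals.
Chac1: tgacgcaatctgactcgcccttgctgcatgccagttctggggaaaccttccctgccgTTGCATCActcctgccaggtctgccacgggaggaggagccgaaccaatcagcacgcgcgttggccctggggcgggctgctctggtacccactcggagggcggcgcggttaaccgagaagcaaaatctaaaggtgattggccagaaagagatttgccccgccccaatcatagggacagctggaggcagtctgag
Atf3: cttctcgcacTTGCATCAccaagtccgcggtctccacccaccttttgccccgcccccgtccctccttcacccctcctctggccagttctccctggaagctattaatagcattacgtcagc
Asns: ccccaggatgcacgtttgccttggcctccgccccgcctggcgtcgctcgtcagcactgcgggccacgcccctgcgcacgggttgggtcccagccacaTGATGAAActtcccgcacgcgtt
Chac1 and Atf3 hold the same 8 letters, read on the opposite strand, and in Asns the match ends 16 bases before the start. Here too binding was not measured, and a part of ATF4 or of the site in these differences was not tested.

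All 15 interferon and antigen presentation genes that passed were above 0, against 4935 of all 9631 genes, and the median was 0.55. Over 2-fold higher were 4 (Gbp3, Cxcl10, Ifit3 and Psmb8), against 2.96% of all genes. Cxcl10 (43.1 without T3) entered through the T3 array alone and had to be higher. Ifit3, which interferons induce, had 388.0 with T3 and 164.1 without after 24 h, 326.5 against 244.1 after 6 h, 737.3 against 683.1 after 16 h, and 1333 against 1148 after 48 h, so its untreated 24 h value was the lowest of the 8. Of 11 hypoxia and glycolysis genes 10 were above 0, with a median of 0.53, and 2 were over 2-fold higher: Vegfa, the vascular growth factor (377.7 and 140.0 against 186.8 to 336.8), and Hk2, a hexokinase (243.8 and 80.4 against 213.5 to 307.4). Enzymes of the same pathway such as Pgk1 (0.09, and 0.47 and 0.62 in other probe-sets) and Ldha (0.15) were within 2-fold. Of 7 NF-kB subunit and inhibitor genes that passed, Nfkbie, an inhibitor, was over 2-fold lower (-1.54) and the others were within 2-fold. No cholesterol synthesis gene was beyond 2-fold, and Actb (-0.00), Hprt (0.21) and Tbp (0.17) among 6 reference genes were within it too.

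**Figure D3:**
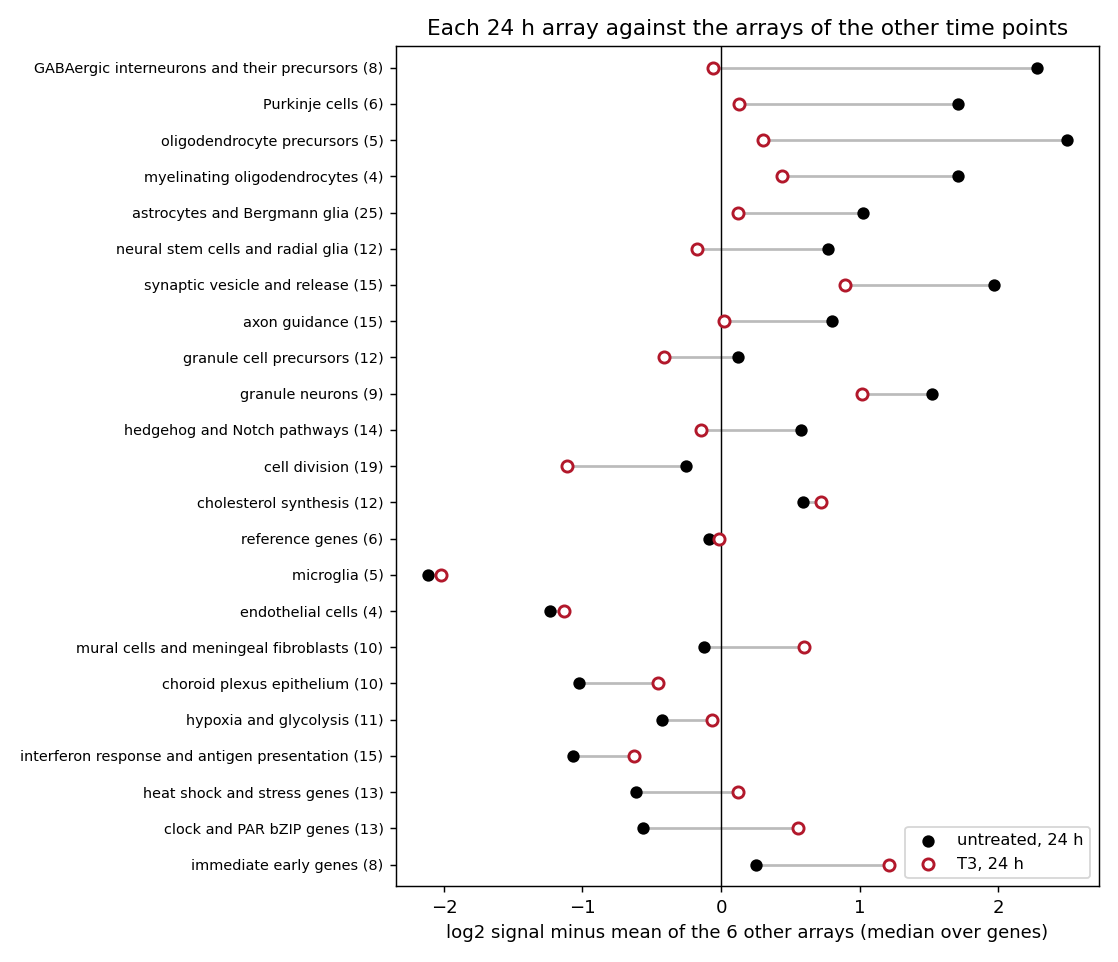
Median over the genes of each list of the log2 signal on the untreated (filled circles) and T3-treated (open circles) 24 h array minus the mean of the 6 arrays of 6, 16 and 48 h. For inhibitory neurons the untreated array stands at 2.28 and the T3 array at -0.06, for cell division the T3 array stands at -1.11 and the untreated array at -0.25, and for microglia both stand near -2 (-2.02 and -2.11).

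The components of T3 signalling themselves were within 2-fold. Thra, the receptor that prevails in neurons, had 643.8 with T3 and 1174 without after 24 h and 555.7 to 965.7 elsewhere (-0.87). Its dimmer probe-sets that passed were level at 24 h (0.01 and -0.06). The retinoid partners Rxra (0.70) and Rxrb (0.04) and the coactivators Ncoa1 (0.20), Ncoa2 (-0.04) and Ncoa3 (0.64) made up the other 5 of 6 that passed of 15. Among genes known to respond to T3 in brain or liver, 7 of 15 passed, with Klf9 and Dbp higher and Pcp2, Mbp and Thrsp, a lipogenic protein (-1.77), lower. Pcp2 (49.9 with T3) and Thrsp (34.6 with T3) entered through the untreated array alone and had to be lower. The study drew its 15 follow-up genes largely from these same arrays, so their direction here is not independent evidence. It also took in genes known beforehand, such as Hr, which it found too low for the arrays. Its choice further used Q-RT-PCR on the same cultures and on an independent set. Of the 13 that passed, 4 were over 2-fold higher at 24 h (Gbp3, Dbp, Klf9 and Spata13). Igsf3, an immunoglobulin superfamily protein, was lower with 125.7 against 388.2. The paper's Q-RT-PCR at 24 h showed a much smaller drop of Igsf3, within 2-fold.

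The pairs of 6, 16 and 48 h share no array with the 24 h pair, so the probe-sets chosen at 24 h can be looked at there apart from that choice. The 641 higher probe-sets had median log2 differences of 0.01, 0.04 and 0.09 in these pairs, and the 1207 lower ones -0.10, 0.01 and 0.11. In the higher set 125 (19.5%) were above 0 in all 3 pairs and 6 by at least 1.5-fold. In the lower set 169 (14.0%) were below 0 in all 3 and 1 by at least 1.5-fold. The same shares over all probe-sets were not computed, so these counts do not tell whether the differences came back. By gene, 3 were over 2-fold higher at 24 h and at least 1.5-fold higher in each other pair, and no gene was lower by that rule.

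**Figure D4:**
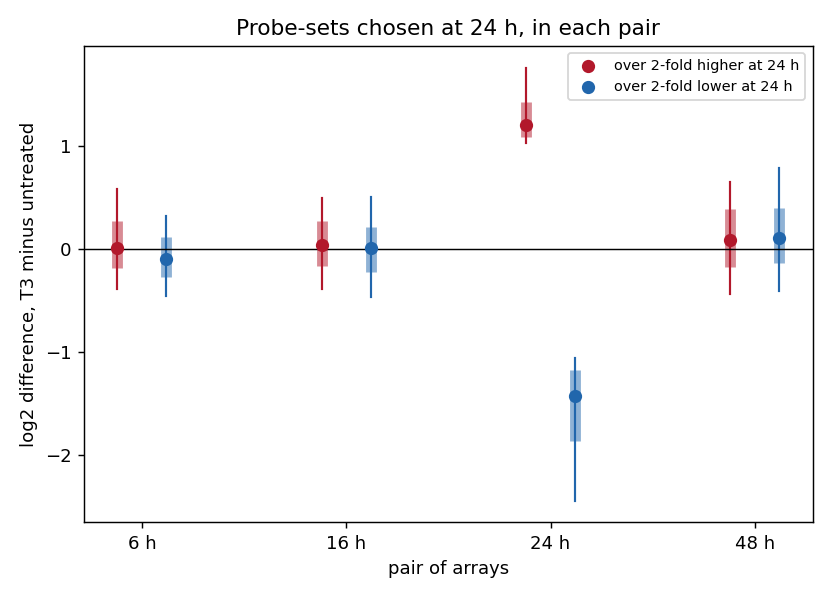
Log2 difference between T3 and untreated in each of the 4 pairs (x axis) for the 641 probe-sets over 2-fold higher (red) and the 1207 over 2-fold lower (blue) at 24 h; points are medians, thick bars the middle 50% and thin lines the middle 80% of probe-sets. The medians at 6, 16 and 48 h lie between -0.10 and 0.11; at 24 h the sets are apart because they were chosen there.

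The 3 genes were Klf9, Dbp and Kcnj13, a potassium channel of choroid plexus epithelium. Klf9 had 3100 with T3 and 1220 without after 6 h, 2737 against 1508 after 16 h, 3131 against 1235 after 24 h, and 2268 against 1498 after 48 h. Dbp had 267.8 against 92.7 after 6 h, 596.2 against 218.9 after 16 h, 469.0 against 179.5 after 24 h, and 866.9 against 441.5 after 48 h. Kcnj13 had 87.8 and 43.6, 759.3 and 393.6, 176.3 and 37.6, and 651.0 and 281.3 at these times. For Klf9 the lowest T3 value lay above the highest untreated one, whereas Dbp and Kcnj13 varied more between time points and were higher with T3 within each. The fold at 24 h was 2.54 for Klf9, 2.61 for Dbp and 4.69 for Kcnj13. At 24 h Kcnj13 entered through the T3 array alone and had to be higher. In the promoter windows of the 3 genes a direct repeat of AGGTCA with any 4 bases between was not found on either strand. This repeat is a form of the thyroid hormone response element, and 4 of 27025 genes hold it there. At so low a share its absence was nearly certain beforehand and does not tell whether a gene has a response element. For Klf9 and Dbp the paper reports binding of a tagged receptor in a cerebellar cell line. The bound elements were of looser sequence and lay farther upstream than these windows.

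A limma fit on the 6 arrays of the other pairs, with the time point as a block, called 2 of 14983 probe-sets higher with T3 (0.0133%) and 0 lower (0%), with 1036 at an unadjusted p under 0.05. The 2 were Dbp, with a log2 difference of 1.32 ± 0.13 (SE, 3 pairs, adjusted p = 0.0472), and Kcnj13, with 1.06 ± 0.11 (adjusted p = 0.0472), and both were over 2-fold higher at 24 h. Klf9 had 0.93 ± 0.12 and did not pass (adjusted p = 0.109). Htra1, Spata13 and Gbp3 had 0.61 ± 0.11, 0.74 ± 0.14 and 0.70 ± 0.15 with limma's adjusted p of 0.363, 0.376 and 0.479. Of the 641 higher probe-sets 483 could be fitted, and 56 of them (11.6%) were higher at an unadjusted p under 0.05, against 3.70% of all fitted. Of the 1207 lower ones 593 could be fitted, and 25 (4.22%) were lower at an unadjusted p under 0.05, against 3.21%. Dbp and Klf9 belong to the genes that the study picked on these arrays, and both calls were lost under several alternatives, with 0 probe-sets called after quantile normalization. Without the 48 h pair 0 were called, whereas without the 6 h pair 70 were called higher and 68 lower, and without the 16 h pair 61 and 30.

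**Figure D5:**
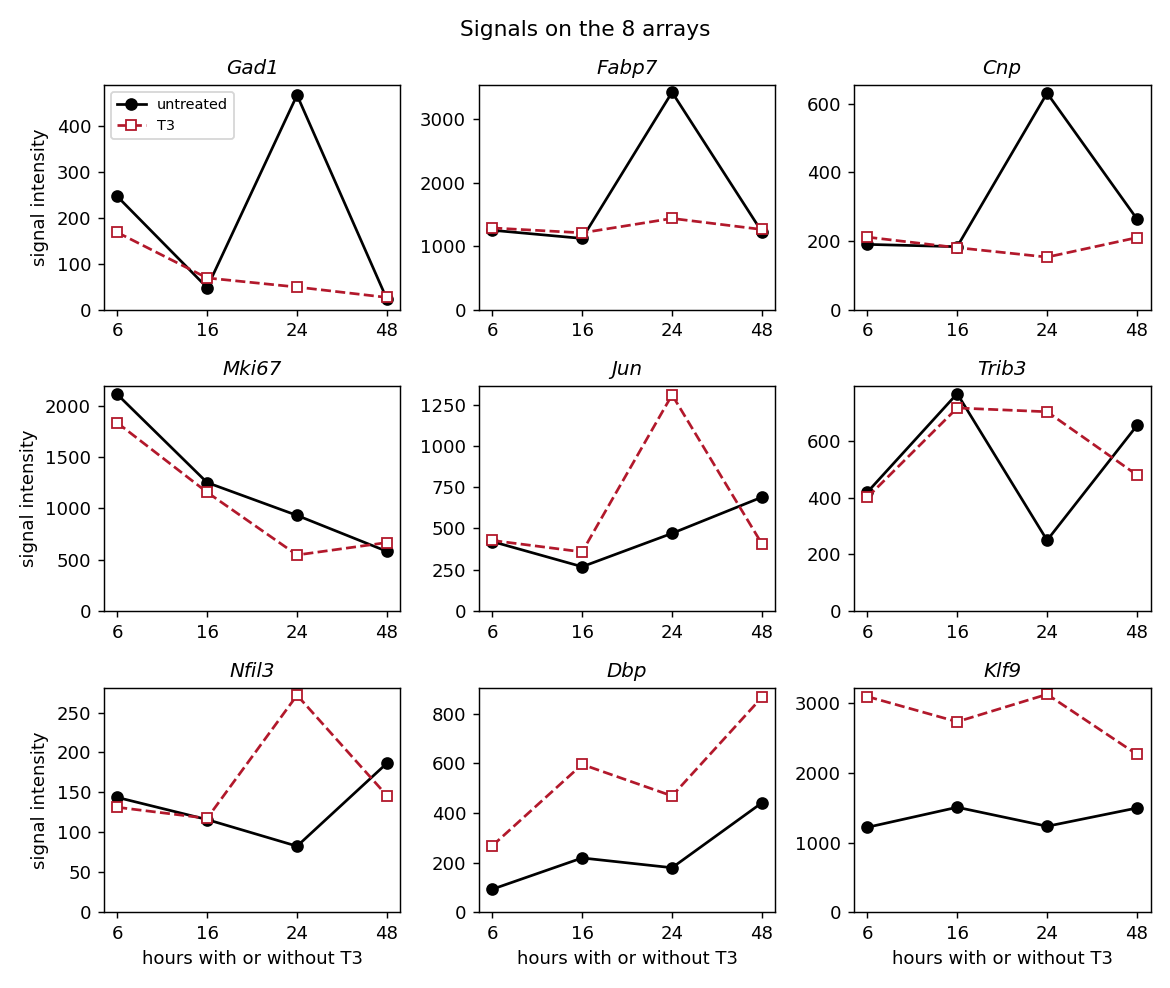
Signal intensity (y axis, from 0) of 9 genes on the 8 arrays by hours in culture with T3 (open squares) or without (filled circles), 1 array per point and no error. Gad1, Fabp7 and Cnp are highest in the untreated 24 h culture, with Gad1 at 168.2 and 246.7 at 6 h too, Mki67 is lowest and Jun and Nfil3 are highest in the T3 24 h culture, Trib3 is lowest in the untreated 24 h culture, and Dbp and Klf9 are higher with T3 at all 4 times.

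Over all genes, the 12 largest differences in each direction were taken with 32 added to every signal, a scale on which dim spots count less. Upwards, Cyp2f2, a cytochrome P450 of the airway, had 163.0 with T3 and 9.40 without after 24 h (2.24 on this scale) and 2.10 to 87.0 elsewhere. Olfm4, a secreted olfactomedin, had 97.4 and 6.50 against 4.6 to 15 (1.75). Tnfrsf12a, the receptor of the cytokine TWEAK, had 937.8 and 245.7 against 206.4 to 773.4 (1.80). In these 3 genes the T3 culture alone was above the range of the other time points. The chemokine Cxcl2 (1.70) and the microtubule-bound exchange factor Arhgef2 (1.74) lay above the 6 others with T3 and below them without. The interferon-induced Ifitm1 (1.73), the Wnt inhibitor Sfrp4 (1.67) and Akap8l (1.69) were further members. Downwards, Apcdd1, an inhibitor of Wnt signalling, had 77.4 with T3 and 737.8 without against 130.1 to 199.0 (-2.81), and all 5 of its probe-sets that passed were lower. Elmod1 had 7.80 and 206.4 against 8 to 25 (-2.58), and Neto2, an auxiliary subunit of kainate receptors, 62.5 and 496.5 against 23.3 to 145.1 (-2.48). All 12 genes downwards had their highest level of the 8 arrays in the untreated 24 h culture, which took part in choosing them.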

How the data were processed

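RNA of 8 cultures was hybridized by the authors to whole-genome mouse arrays (GeneChip Mouse Genome 430 2.0) after linear amplification, 1 array per condition. The authors deposited signal intensities on a linear scale, for which the submitters' processing notes name GCOS and MAS5, and the trimmed mean (without the outer 2% at each end) was 100 on every array. Such scaling assumes equal total signal. Columns of values left unused: 0. Of 45101 probe-sets 64 controls were dropped. Of the rest 34945 carry 1 symbol, 932 several and 9160 none, and 34741 gene IDs were found in the RefSeq table. Signals below 1 (7.30% of values) were set to 1 and log2 was taken. MAS5 detection calls were not used here.

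The 24 h arrays were compared as fold changes with no test. Recurrence was tested with limma 3.58.1 in R 4.3.3 over the 6, 16 and 48 h pairs, with the time point as a block, because the methods pair the cultures of a time point by cell batch, a variance trend and Benjamini-Hochberg adjustment at 0.05, on probe-sets with a mean log2 signal of at least that of 50. Tables and figures were made in Python 3.11.15 (pandas 2.3.3, matplotlib 3.10.9). Named genes are members of 31 lists (409 genes, 36 without a probe-set of their own and not analysed here), the 12 largest differences each way with 32 added, genes over 2-fold at 24 h and at least 1.5-fold the same way in all other pairs, and genes called in the fit. A gene on several lists counts in each. Motifs were chosen after the values had been seen, and Per2, Slc7a3 and Aqp4 have no promoter entry. The comparison and the lists were chosen with earlier results of these data known. Alternatives were 32 added, quantile normalization, median centring, other signal filters, a 3-fold threshold, genes in place of probe-sets, and for the fit no trend, no block, no filter, all 4 pairs and each pair left out. The mean of the 3 other untreated arrays as a reference was added after the data were seen. The number of arrays limits the precision.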

Additional observations from a re-analysis of the deposited data

Results flagged for a closer look

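Lists with a median of at least 1.5-fold at 24 h and the opposite sign in each of the other pairs were singled out, and the difference between time points was not tested. The median log2 difference of the astrocyte and Bergmann glia list was -0.78 at 24 h and 0.09, 0.05 and 0.05 at 6, 16 and 48 h. For heat shock and stress genes it was 0.89 at 24 h and -0.06, -0.04 and -0.53 in the other pairs. For cell division genes it was -0.78 at 24 h and 0.01, 0.03 and 0.19 in the other pairs. The list of genes known to respond to T3 in brain or liver, with 7 genes, also had opposite signs (-0.54 at 24 h, and 0.28, 0.06 and 0.25) but lay under 1.5-fold.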

How the results depend on the processing

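With 1 array a side, 249 probe-sets were over 2-fold higher and 676 lower at 24 h with 32 added to every signal, 368 and 616 with a signal of at least 50 on both arrays, 101 and 475 at 3-fold, and 285 and 721 by gene. At a signal of at least 100 on either array 414 were higher. Against the mean of the 3 other untreated arrays 212 were lower. The lower probe-sets with the untreated array above the 6 others and the T3 array within them numbered 797, and 468, 411, 345 and 472 with 32 added, the filter on both arrays, 3-fold and by gene. The higher ones with the T3 array above and the untreated array within numbered 163, and 70, 82, 44 and 76 in the same order, and 95 with a signal of at least 100. The median of the inhibitory neuron list was -1.26 with 32 added. The other 89 of 90 alternative list medians kept their sign. Those that moved by over 1.5 times were the clock list (0.94 to 0.61 with 32 added), granule neurons (-0.63 to -0.97 with the mean of probe-sets), and lists with medians near 0: microglia and endothelial cells (both 0.12, and 0.07 and 0.08 with 32 added), unipolar brush cells (0.03, and 0.01 both after quantile normalization and with the mean of probe-sets) and cholesterol synthesis (-0.04, and -0.00 with that mean). The lower share of calls was 65.3%, 60.3% after quantile normalization and 58.5% after median centring.

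In the limma fit over the other 3 pairs the 2 calls upwards became 1 with 32 added, and 0 with quantile normalization, without the trend, without the replicate block, without the filter and over all 4 pairs. With one pair left out the calls ranged from 0 to 70 upwards and from 0 to 68 downwards: 70 and 68 without the 6 h pair, 61 and 30 without the 16 h pair, and 0 and 0 without the 48 h pair. Fits on 2 pairs leave few residual degrees of freedom, to which limma adds prior ones estimated over all probe-sets. The prior ones were 6.42 in the main fit and 39.4, 102 and 5.23 without the 6, 16 and 48 h pair. The cause of these shifts was not tested.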
